A study of Homo sapiens with 10 samples.

Results

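U2OS cells, a human osteosarcoma line, were compared between 2 treatments by RNA sequencing. Ars cells received arsenite for 50 min. EBSS+VBL+Ars cells were kept beforehand for 18 h in EBSS, a buffered salt solution with glucose but without amino acids (AAs) or serum, with the microtubule-disrupting drug vinblastine (VBL), and then received arsenite too. Each treatment had 3 libraries, which are 6 of the 10 in the series, and all 6 were chosen by their titles. The other 4, which are EBSS+VBL+Gln+Ars cells (the same with glutamine added, 3 libraries) and untreated cells (1 library, with no replicate), serve only as side values. The missing AAs, the missing serum and VBL came together, so their shares in any difference cannot be told apart. Arsenite was given to both groups, and no library received VBL or EBSS without arsenite. Whether the libraries of a group were separate cultures is not said, and p-values therefore reflect the spread among these 6 libraries alone, part of which may be technical.

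Arsenite halts the initiation of translation and drives mRNAs into stress granules (SGs). Cells short of AAs switch on the transcription factor ATF4, and cells without serum lose the growth factors that hold them in cycle. Vinblastine takes microtubules apart, and cells that sense an excess of free tubulin degrade tubulin mRNAs as they are translated. The paper reports that VBL could also gather free tubulin into paracrystals, and the amount of free tubulin was not measured here. The study used the comparison to ask what the pretreatment, whose effect on SGs it examined, did to gene expression.

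Values are normalized counts, the reads on a gene divided by a size factor of its library. Ars libraries had 5914439 to 7019842 reads on genes and EBSS+VBL+Ars libraries 3538017 to 4993421, so depth did not overlap between the groups. In the 6 libraries RN7SL1 and RN7SL2, small RNAs of the signal recognition particle, took together 11.7 to 20.2% of these reads. Libraries correlated at 0.981 to 0.988 within Ars, at 0.970 to 0.978 within EBSS+VBL+Ars and at 0.863 to 0.885 between the groups, and a first principal component that took 80.2% of the variance separated them. Of 13 markers of a mesenchymal line, 10 were measured, with VIM and COL1A1 among them, and blood cell markers summed to at most 14.4 normalized counts in a library. In bulk RNA, fewer cells of a kind and less RNA per cell cannot be told apart.

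Of 60671 genes, 13061 averaged 10 normalized counts or more in the 6 libraries and were tested with limma on log2(normalized count + 1), a scale that understates changes of low genes. A gene was called at a Benjamini-Hochberg adjusted p under 0.05 and at least 1.5-fold, and 5550 genes (42.5%) were called, 2758 higher (21.1%) and 2792 lower (21.4%) in EBSS+VBL+Ars. These shares are the background for the counts of members that follow. The groups did not overlap in 60.1% of genes, with 30.3% higher and 29.8% lower. On the log2 scale the single untreated library lay nearer to the EBSS+VBL+Ars mean than to the Ars mean in 1085 of the genes that were higher (39.3%) and 1169 of those lower (41.9%). At least 4-fold changes were seen in 298 genes that were higher and in 354 that were lower, and at least 16-fold in 28 and 23. The split depends on scaling. After all libraries were brought to the same total, the calls were 2036 higher and 3674 lower, and the median log2 difference went from 0.01 to -0.17. The 10 largest gains made up 22.6% of the summed gain in normalized counts, and the 10 largest losses 22.1% of the summed loss. The gains were led by FLNA and PLEC, which link the cytoskeleton together, and the losses by histone genes and by TUBB.

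**Figure D1:**
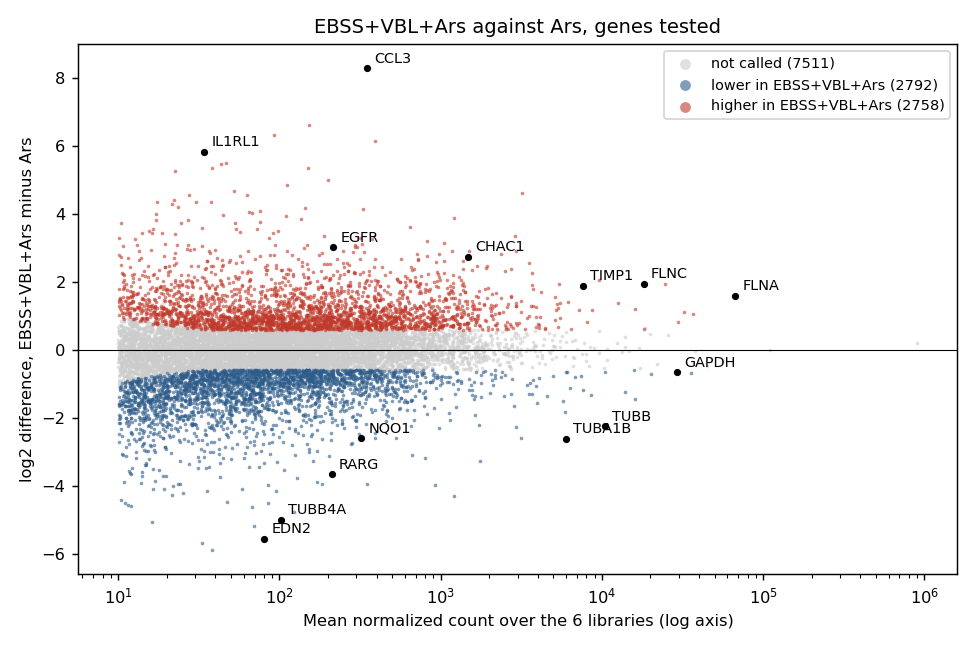
Each point is a gene tested, with its mean normalized count over the 6 libraries (log axis) and its log2 difference, EBSS+VBL+Ars minus Ars. Red points are the 2758 genes called higher, blue points the 2792 called lower and grey points the 7511 not called, with some named genes in black.

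The gene lists described here were written by hand, and each is given by its measured members, its calls and its median log2 difference beside the median of 0.01 over all genes. The lists with the most negative medians were the alpha- and beta-tubulins (-1.4) and the cyclins, CDKs and their inhibitors (-0.83). Those with the most positive were MAP kinase feedback (1.24) and AA transporters (0.97).

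**Figure D2:**
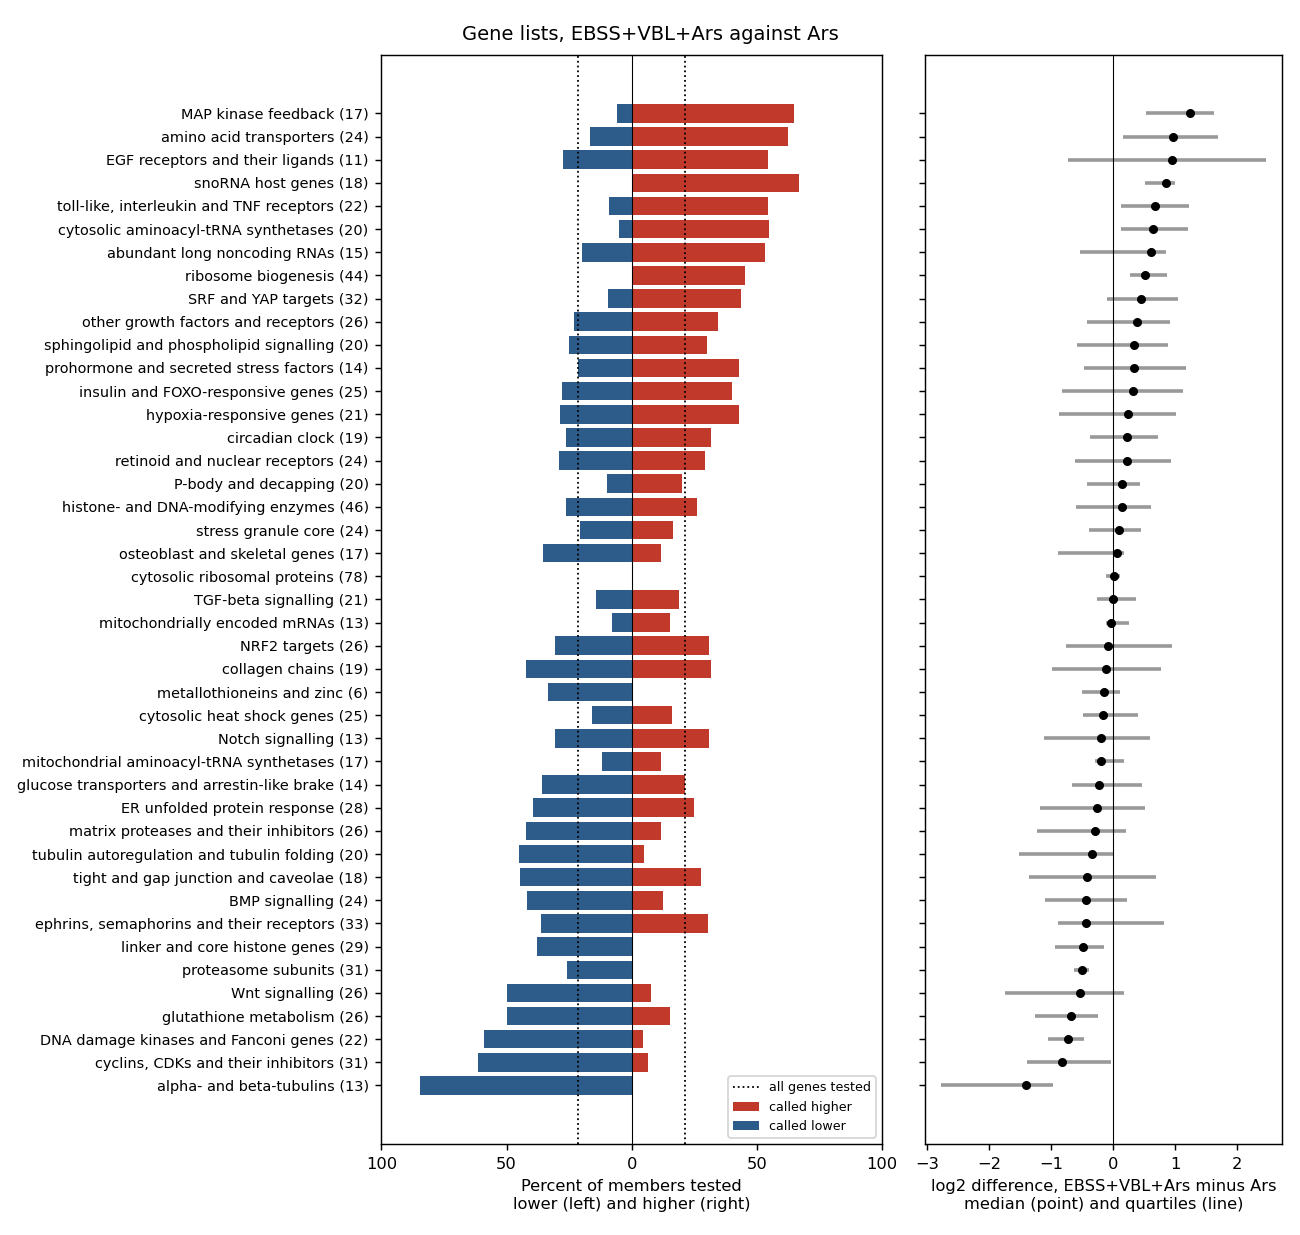
Left, the percent of measured members of 43 gene lists called lower (blue) and higher (red), with the number measured in parentheses and dotted lines at 21.4 and 21.1%, the shares over all genes. Right, the median log2 difference of each list (point) with its quartiles (line), from -1.4 for tubulins to 1.24 for MAP kinase feedback.

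Tubulin genes fell as a group. Of 13 alpha- and beta-tubulin genes measured, 11 were lower and 0 higher, with a median of -1.4, and their summed normalized counts went from 40066 to 42309 in Ars libraries to 10440 to 11508 in EBSS+VBL+Ars libraries. TUBB, a beta-tubulin gene at chr6:30717435-30725538 (hg38), held 16895, 17979 and 16821 normalized counts in the 3 Ars libraries and 3601, 3419 and 3872 in the 3 EBSS+VBL+Ars libraries. The groups did not overlap, and the mean was 4.75-fold lower (log2 -2.25 ± 0.12 (SE), adjusted p = 5.06e-10 from limma). The alpha-tubulin gene TUBA1B fell from 10588, 9947 and 10254 to 1638, 1587 and 1771 normalized counts, 6.16-fold lower on the mean. TUBA1A fell from 1235, 1167 and 1151 to 122, 152 and 140.3, which is 8.57-fold, and TUBA4A from 481, 506 and 471 to 68.5, 68.1 and 74.0. Sizes of the falls differed widely inside the family. TUBB4A was the steepest, with 182, 235 and 175 normalized counts in Ars and 6.74, 1.75 and 9.94 in EBSS+VBL+Ars libraries (log2 -5.0 ± 0.37 (SE), adjusted p = 1.56e-08 from limma), and its low values there rest on few reads. TUBB4B, at 5024 ± 386 (SD, n = 3) in Ars and 2032 ± 151 in EBSS+VBL+Ars, fell 2.47-fold, and TUBA1C fell by 0.87 on the log2 scale. TUBB2A, TUBB2B and TUBB3 fell by 1.4, 1.01 and 0.97. The 2 members that were not called were TUBB6, at 1404 ± 83.4 against 960.1 ± 45 (log2 -0.55 ± 0.11 (SE), adjusted p = 0.000455 from limma), below the 1.5-fold minimum, and TUBA3E, at 21.1 against 31.5. TUBB6 was called lower with equal totals, and TUBA3E higher after quantile normalization and without EBSS+VBL+Ars replicate 1. The near-identical copies of the TUBA3 genes may share reads, so TUBA3C (1432 to 159) and TUBA3E are uncertain.

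The untreated library, with no replicate, held 15989 normalized counts of TUBB and 7349 of TUBA1B, much nearer to Ars than to EBSS+VBL+Ars libraries. With glutamine added, TUBB stood at 3472, 3997 and 3819.6 and TUBA1B at 1919, 2056 and 2003, in the range of the EBSS+VBL+Ars values or slightly above it. TUBA1A differed, with 259 in the untreated library, which is nearer to the EBSS+VBL+Ars values.

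The feature read in tubulin autoregulation lies in the first codons, where the factor TTC5 recognises the start of a new tubulin chain on the ribosome. The first 24 coding bases of 8 genes, read from hg38 over the canonical GENCODE transcripts, are shown 5′ to 3′ with the first 4 codons in capitals. The first 4 genes are beta-tubulins, the next pair alpha-tubulins, in which an intron follows the start codon, and the last pair are gamma- and epsilon-tubulin.
TUBB: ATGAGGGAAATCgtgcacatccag
TUBB4A: ATGCGGGAGATCgtgcacctgcag
TUBB4B: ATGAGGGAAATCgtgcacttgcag
TUBB6: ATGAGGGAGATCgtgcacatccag
TUBA1B: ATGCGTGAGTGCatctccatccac
TUBA4A: ATGCGTGAATGCatctcagtccac
TUBG1: ATGCCGAGGGAAatcatcacccta
TUBE1: ATGACCCAGTCGgtggtcgtacag
The stretch of TUBB lies at chr6:30720507-30720530 (plus strand), that of TUBB4A at chr19:6502189-6502212 (minus strand), that of TUBB4B at chr9:137241361-137241384 (plus strand) and that of TUBB6 at chr18:12308293-12308316 (plus strand). TUBB and TUBB4B have the same first 4 codons, and their log2 differences were -2.25 and -1.31. TUBG1 begins at chr17:42609738-42609761 (plus strand) and TUBE1 at chr6:112087411-112087434 (minus strand), and both open differently from the alpha- and beta-tubulins. TUBG1, gamma-tubulin of the microtubule-organising centre, went from 884, 811 and 885 to 253, 236 and 306 normalized counts (-1.70 on the log2 scale). TUBE1, epsilon-tubulin of centrioles, moved the other way, from 18.9, 7.45 and 19.3 to 61.8, 54.1 and 50.8 (log2 1.91 ± 0.31 (SE), adjusted p = 8.65e-05 from limma), at a low level.

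Of 20 genes of tubulin folding, autoregulation and microtubule binding, 9 were lower and 1 was higher, with a median of -0.34. TTC5 itself held 117, 102 and 101 normalized counts in Ars and 33.7, 43.7 and 30.9 in EBSS+VBL+Ars libraries, a 2.96-fold fall with no overlap. MAP1A, a microtubule-associated protein, fell from 198 ± 12.9 to 16 ± 0.736 (log2 -3.54 ± 0.18 (SE), adjusted p = 2.56e-10 from limma). The tubulin-folding cofactor gene TBCB fell by 1.21 on the log2 scale and the tubulin-sequestering stathmin gene STMN1 by 0.98. TUBE1 was the 1 higher, and without EBSS+VBL+Ars replicate 1 there were 2.

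**Figure D3:**
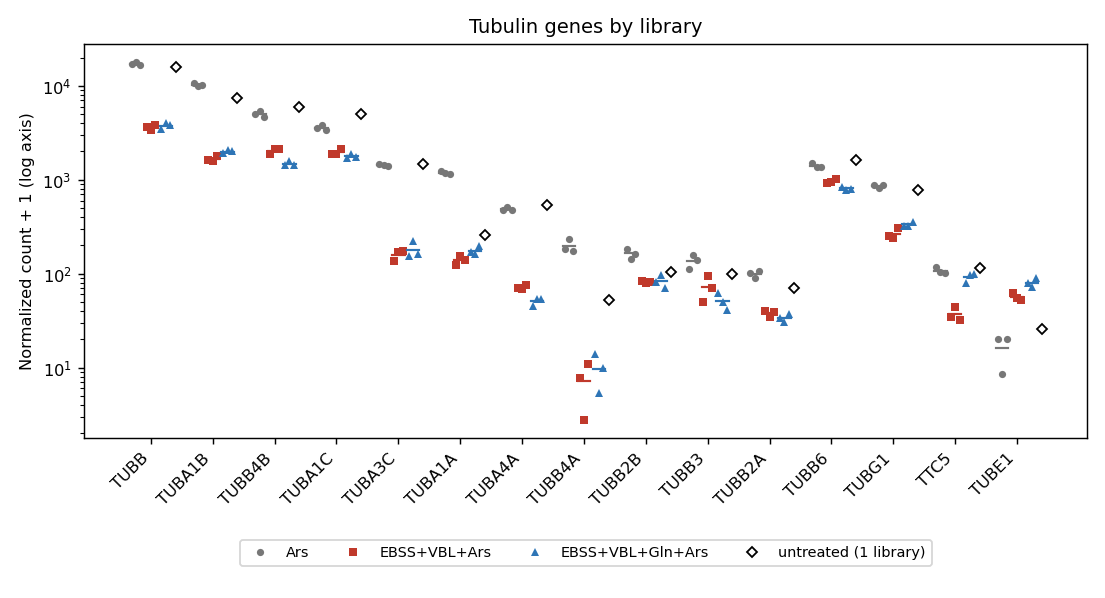
Normalized count + 1 (log axis) of 12 alpha- and beta-tubulin genes, TUBG1, TTC5 and TUBE1 in each library, with short lines at the group means. Grey circles are Ars, red squares EBSS+VBL+Ars, blue triangles EBSS+VBL+Gln+Ars and open diamonds the single untreated library. In every gene but TUBE1 the red squares lie below the grey circles.

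Targets of SRF and YAP, transcription factors that respond to actin and tension, were more often higher than lower. Of 32 measured, 14 were higher, 3 lower and 15 not called, with a median of 0.45 (with equal totals 12 higher and 4 lower). FLNC, a filamin that cross-links actin, held 6557, 8539 and 7312 normalized counts in Ars and 26169, 27861 and 32290 in EBSS+VBL+Ars libraries, 3.85-fold higher (log2 1.95 ± 0.15 (SE), adjusted p = 2.17e-08 from limma). FLNA, another filamin, rose from 28947, 37363 and 33804 to 90699, 101640 and 109280. ANKRD1, a classical YAP target, rose from 234, 152 and 257 to 1676, 1411 and 1209, or 6.67-fold, and the matricellular genes CCN2 and CCN1 rose 2.88-fold and 2.15-fold. All 3 EBSS+VBL+Ars libraries were above all 3 Ars libraries in each of these genes. With glutamine added, FLNC was at 6730.3, 8824 and 7724, close to the Ars values, and ANKRD1 at 1582, 1513 and 1820.0. TPM1, a tropomyosin that lines actin filaments, was 1 of the 3 lower, with CNN2 and TPM4, and fell from 1715, 1504 and 1656 to 389.8, 330.0 and 275 normalized counts (log2 -2.30 ± 0.13 (SE), adjusted p = 8.21e-10 from limma). Outside the list, PLEC, plectin, which ties intermediate filaments to actin and microtubules, went from 9140.3, 11191 and 10085 to 30750, 43898 and 43558, and the keratin gene KRT17 from 9463, 10587 and 9264 to 22326, 22065 and 23170. In the untreated library PLEC was at 29556 and KRT17 at 17207, nearer to EBSS+VBL+Ars than to Ars libraries. FLNA, at 42919 there, and FLNC, at 12035, were nearer to Ars. On the log2 scale CCN2, at 1128, and CCN1, at 2938, were nearer to EBSS+VBL+Ars. ANKRD1, at 497, and TPM1, at 1061, were nearer to Ars.

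ARHGEF2 encodes GEF-H1, an exchange factor that microtubules hold inactive. It held 782, 1024 and 825 normalized counts in Ars and 4312, 4919 and 4406 in EBSS+VBL+Ars libraries, a 5.18-fold rise with no overlap (log2 2.38 ± 0.12 (SE), adjusted p = 2.77e-10 from limma). RND3, an atypical small GTPase that loosens actin fibres, also rose, from 84.2 to 546. The formin gene DAAM2 fell from 280.2, 322 and 275 to 23.6, 38.4 and 27.6.

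Receptors and ligands of the EGF family split by gene. Of 11 measured, 6 were higher and 3 lower. EGFR, the receptor for EGF at chr7:55019017-55211628, held 50.0, 46.6 and 42.8 normalized counts in Ars libraries and 427, 325 and 397 in EBSS+VBL+Ars libraries. That is an 8.24-fold rise with no overlap (log2 3.01 ± 0.15 (SE), adjusted p = 2.39e-10 from limma), and its untreated value was 59.9. Its ligand genes AREG and HBEGF rose from 13.1 ± 3.43 to 83.8 ± 17.4 and from 41.0 ± 1.60 to 166 ± 28.9 (SD, n = 3). Untreated HBEGF, at 113, was nearer to EBSS+VBL+Ars on the log2 scale, and AREG, at 22.8, was nearer to Ars. ERRFI1, an inhibitor that binds the receptor, rose 6.43-fold, from 58.7, 57.8 and 66.2 to 435, 344 and 396. ERBB3, a receptor of the same family, fell from 20.4 to 2.44, near the limit of detection, and LRIG3 and the ligand gene NRG1 fell too.

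Feedback genes of the MAP kinase cascade, which lies downstream of such receptors, were 11 of 17 higher and 1 lower, median 1.24. DUSP5, a phosphatase of nuclear ERK, went from 46.6, 49.4 and 47.0 to 382, 396 and 381 normalized counts (log2 2.99 ± 0.14 (SE), adjusted p = 8.89e-11 from limma). The ERK-induced transcription factor genes ETV5 and ETV4 rose 5.64-fold and 3.48-fold, and the Ras inhibitor genes SPRED3, SPRED1 and SPRED2 rose 3.76-fold, 2.68-fold and 2.09-fold. PHLDA1 was the 1 member lower, 135 to 84.9, and no member was lower without EBSS+VBL+Ars replicate 2.

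Other growth factors and their receptors were 9 of 26 higher and 6 lower, median 0.38. GDF15, a secreted stress factor that acts on the brainstem, rose from 64.8, 70.8 and 61.2 to 463, 576 and 580.0 normalized counts (log2 3.02 ± 0.14 (SE), adjusted p = 1.02e-10 from limma), against 13.3 in the untreated library. FGF5, a fibroblast growth factor, rose from 9.45, 6.52 and 12.6 to 68.5, 59.4 and 57.5 and VEGFA, which drives vessel growth, from 659, 969 and 766 to 1590.5, 2066 and 2101. The 2 PDGF receptor genes fell. PDGFRB went from 579, 618 and 615 to 179, 155 and 191 normalized counts (log2 -1.79 ± 0.12 (SE), adjusted p = 6.7e-09 from limma) and PDGFRA from 49.3, 41.9 and 41.1 to 2.25, 8.73 and 2.21. Untreated values of FGF5 (58.0) and PDGFRB (291) were nearer to EBSS+VBL+Ars on the log2 scale, and that of VEGFA (470) was nearer to Ars.

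Among developmental signalling pathways, BMP and Wnt genes were more often lower than higher. Of 24 BMP signalling genes 3 were higher and 10 lower, with a median of -0.43. Beside ID1 and ID3, SMAD6, an inhibitory SMAD that BMP induces, fell from 152, 171 and 158 to 5.62, 14 and 9.94 normalized counts, 16.3-fold (log2 -3.97 ± 0.27 (SE), adjusted p = 5.06e-09 from limma). Another BMP-responsive gene, ATOH8, fell from 58.3 to 7.17. The ligand genes diverged, with BMP4 at 406, 407 and 348 in Ars and 128, 115 and 161 in EBSS+VBL+Ars libraries and BMP2 at 11.5, 26.1 and 16.8 and 68.5, 62.9 and 74.0. NOG, which encodes the BMP antagonist noggin, rose from 214 to 389.6. In the untreated library BMP4 was at 83.7, nearer to EBSS+VBL+Ars, and SMAD6 at 170 and ATOH8 at 59.0, nearer to Ars libraries.

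Of 21 TGF-beta signalling genes 4 were higher and 3 lower, neither above the share over all genes, with a median of 0.0008. The receptor gene TGFBR2 rose from 224 to 420.4 and SKI, a repressor of SMADs, from 196 to 617, while the ligand gene TGFB3 fell from 37.7 to 2.06.

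Of 26 Wnt pathway genes, 13 were lower and 2 higher, with a median of -0.54. FZD2, a Wnt receptor, held 641, 728 and 657 normalized counts in Ars and 103, 117 and 112 in EBSS+VBL+Ars libraries, 6.10-fold lower (log2 -2.60 ± 0.12 (SE), adjusted p = 1.3e-10 from limma). FZD4, a related receptor, fell from 32.9 to 5.14, the ligand gene WNT7B from 34.6 to 4.12 and PORCN, which acylates Wnt ligands, from 88.2 to 31.6. AXIN2, a target and brake of the pathway, fell by 1.25 on the log2 scale. AXIN1, a scaffold of the complex that destroys beta-catenin, rose from 263, 320.5 and 315 to 699.8, 779 and 936.

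Notch genes were 4 of 13 higher and 4 lower, median -0.19. NOTCH3 fell from 671, 901 and 807 to 144, 203 and 251 normalized counts and HES1, a Notch target, from 207 to 97.5. The untreated library held 240 of NOTCH3 and 32.3 of HES1, both nearer to EBSS+VBL+Ars than to Ars libraries. The 4 that were higher, NOTCH2, HEY1, MFNG and RBPJ, were 0 without EBSS+VBL+Ars replicate 3, and 2 without Ars replicate 2 or Ars replicate 3. With equal totals 2 were higher and 6 lower.

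Guidance molecules were mixed, 10 of 33 higher and 12 lower, median -0.44. EPHB3, an ephrin receptor gene, held 251, 354 and 353 normalized counts in Ars and 12.4, 31.4 and 21 in EBSS+VBL+Ars libraries (log2 -3.90 ± 0.26 (SE), adjusted p = 3.96e-09 from limma), and the repellent SEMA3F fell from 481 to 114. PLXNA2, a semaphorin receptor, rose from 85.7, 116 and 117 to 601, 700.2 and 718, SEMA7A from 424 to 1762 and EPHA2 from 1471 to 3728. Untreated PLXNA2 (345), SEMA7A (1187), SEMA3F (186) and EPHB3 (80.8) were nearer to EBSS+VBL+Ars than to Ars on the log2 scale.

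Nuclear receptors split as well, 7 of 24 higher and 7 lower, median 0.23. The retinoic acid receptor gene RARG, at chr12:53210567-53232980, fell from 337, 429 and 410.0 to 25.8, 29.7 and 34.2 normalized counts, 13.1-fold (log2 -3.67 ± 0.17 (SE), adjusted p = 6.83e-11 from limma). CRABP2, which carries retinoic acid to its receptors, fell from 419.9 to 85.1 and the thyroid hormone receptor gene THRA from 267, 348 and 333 to 50.5, 52.4 and 46.4. The glucocorticoid receptor gene NR3C1 rose from 77.6, 55.9 and 46.1 to 198, 229 and 203. Untreated CRABP2 (171), THRA (119) and NR3C1 (167) were nearer to EBSS+VBL+Ars on the log2 scale, and RARG (138) was nearer to Ars.

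**Figure D4:**
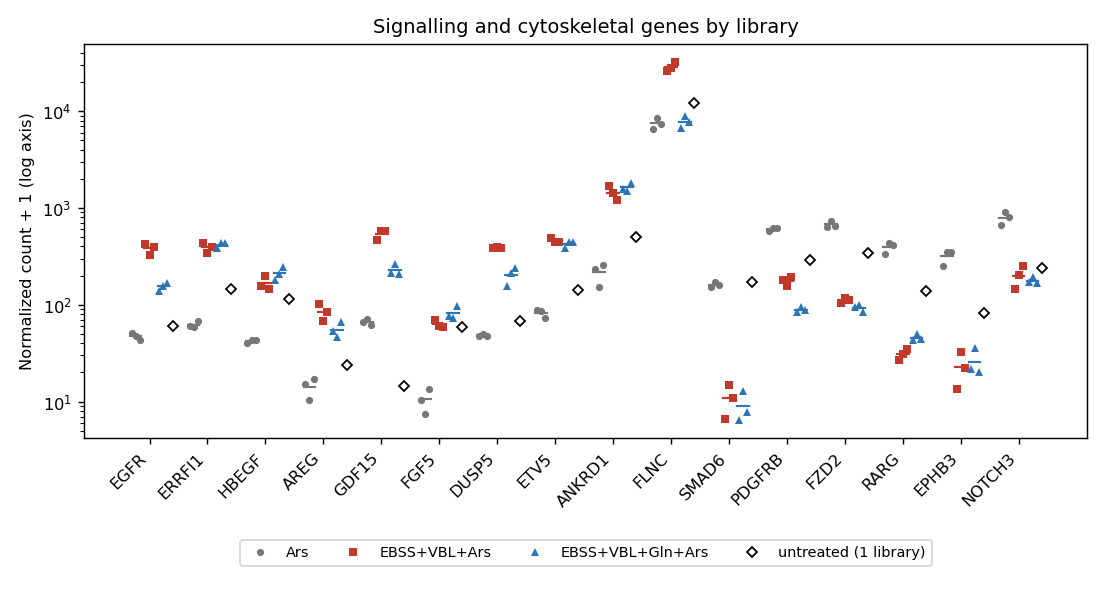
Normalized count + 1 (log axis) of 16 signalling and cytoskeletal genes in each library, with short lines at the group means. Colours and shapes stand for Ars (grey circles), EBSS+VBL+Ars (red squares), EBSS+VBL+Gln+Ars (blue triangles) and the single untreated library (open diamonds). The first 10 genes are higher in all EBSS+VBL+Ars than in all Ars libraries, EGFR 8.24-fold, and the last 6 are lower, SMAD6 16.3-fold.

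Genes of the extracellular matrix moved apart by gene. Of 19 collagen chains, 6 were higher and 8 lower. COL1A1, the main fibrillar chain of bone, fell from 9757, 11093 and 10987 to 4032, 4898 and 5128 normalized counts (log2 -1.18 ± 0.13 (SE), adjusted p = 1.47e-06 from limma) and COL5A2 from 179 to 48.3. COL6A2 rose from 917, 1109 and 976 to 2679, 3277 and 3479 and COL13A1, a transmembrane collagen, from 46.7 to 378. In the untreated library COL1A1 was at 4353 and COL5A2 at 52.3, nearer to EBSS+VBL+Ars than to Ars libraries. COL6A2, at 796 there, and COL13A1, at 87.5, were nearer to Ars. Within basement membrane collagen IV, whose genes sit head to head, COL4A2 rose from 2357 to 4545 and COL4A1 fell from 768 to 371.

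Matrix proteases and their inhibitors were 3 of 26 higher and 11 lower, median -0.30. TIMP1, an inhibitor of matrix metalloproteases, rose from 3157, 3351 and 3288 to 11316, 12397 and 12309 normalized counts, 3.68-fold (log2 1.88 ± 0.12 (SE), adjusted p = 2.35e-09 from limma), and the protease gene MMP3 from 8.10, 6.52 and 11.7 to 124, 103 and 90.6. TIMP3, a matrix-bound relative of TIMP1, fell from 383, 362 and 376 to 130.3, 107 and 123. The collagen cross-linking enzyme gene LOX fell from 229.5, 200.3 and 253 to 67.4, 43.7 and 75.1 and its relatives LOXL4, LOXL1 and LOXL3 by 1.5, 0.79 and 1.07 on the log2 scale. In the untreated library LOXL4 was at 188, below the EBSS+VBL+Ars libraries, TIMP1 at 3371, nearer to Ars, and LOX at 147, between the groups.

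Of 17 osteoblast and skeletal genes 2 were higher and 6 lower, with a median of 0.06. SPARC, which encodes osteonectin, fell from 4829 to 2632 and the posterior HOX gene HOXC10 from 67.4 to 22.5, while ALPL, alkaline phosphatase of bone, rose from 54.0, 62.4 and 62.0 to 232, 246 and 219. The untreated library held 2040 of SPARC, nearer to EBSS+VBL+Ars, 56.1 of HOXC10, nearer to Ars, and 121 of ALPL, between the groups. Among the mesenchymal markers 5 were lower, with THY1 at 1087 ± 54.4 against 229 ± 25.8 and VIM at 12756 against 8101, and CD44 was higher, 638 to 1543. The markers summed to 35852 to 37675 normalized counts in Ars and 19888 to 23127 in EBSS+VBL+Ars libraries. Of the epithelial markers, 2 were measured and both were lower, CLDN4 (109 to 11.3) and KRT14 (67.1 to 7.53). The 10 epithelial markers summed to 198 to 199 and 32.6 to 46.4 normalized counts. Of the endothelial and nerve markers 5 were measured, 2 higher and 2 lower. The part of marker genes in other results was not tested.

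Junction and caveolar genes were 5 of 18 higher and 8 lower, median -0.42. CAV1, the coat protein of caveolae, fell from 374, 318 and 375 to 73.0, 61.1 and 57.5 normalized counts (log2 -2.46 ± 0.15 (SE), adjusted p = 1.56e-09 from limma), whereas CAVIN1, which shapes the same structures, rose from 3764 to 7195. The gap junction gene GJA1 fell by 1.91 on the log2 scale and the claudin gene CLDN15 rose from 45.2, 59.6 and 41.1 to 194, 217 and 277.

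Among 24 AA transporters 15 were higher and 4 lower, with a median of 0.97. SLC7A1, which carries cationic AAs, rose from 406, 443 and 438 to 1895, 2032 and 1952 normalized counts, 4.57-fold (log2 2.19 ± 0.11 (SE), adjusted p = 1.49e-10 from limma). SLC38A1, a transporter of glutamine and other neutral AAs, rose from 77.6, 80.1 and 69.6 to 467, 410.3 and 476, and SLC7A5, the large neutral AA exchanger, from 3429.6, 4145 and 3474 to 13848, 15521 and 16699. In the untreated library SLC7A1 was at 1337 and SLC7A5 at 10643, nearer to EBSS+VBL+Ars than to Ars libraries. SLC38A1, at 126 there, was nearer to Ars. SLC1A5, a glutamine importer, rose from 2799, 3377 and 2884 to 7282, 7689.8 and 8740.5. SLC38A3, another glutamine transporter, was lower, at 44.6, 50.3 and 44.4 in Ars and 2.25, 1.75 and 2.21 in EBSS+VBL+Ars libraries, and the AA transporter gene SLC43A2 fell from 129.7 to 40.4.

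Of 20 cytosolic aminoacyl-tRNA synthetases, which load tRNAs with AAs, 11 were higher and 1 lower, with a median of 0.65. The seryl enzyme gene SARS1 rose from 559.7, 534 and 574 to 2526, 2165 and 1852 normalized counts (log2 1.96 ± 0.12 (SE), adjusted p = 2.36e-09 from limma), and CARS1 and WARS1, for cysteine and tryptophan, rose 3.23-fold and 3.32-fold. KARS1, for lysine, was the 1 lower, at 810.5 against 545, a call lost with edgeR, with DESeq2 and when 1 of 3 libraries was left out (Ars replicate 3, EBSS+VBL+Ars replicate 2 or 3). With equal totals 8 were higher, and after quantile normalization 7. The mitochondrial enzymes were 2 of 17 higher and 2 lower, median -0.20, and these counts changed when single libraries were left out. MARS2, for mitochondrial methionine, rose from 18.6 to 58.1.

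Promoters were searched for short motifs in RefSeq sequences (GRCh38.p14) that run from 250 bases before to 50 after the start of a gene, with 9864 of the 13061 genes tested matched. The ATF4 composite element, spelled TGATGNAA and searched on both strands, was in 3.07% of promoters of genes that were higher, 1.52% of those lower, 1.27% of those not called and 3.67% of all 27305 promoters. Among genes at least 4-fold higher it was in 8.54% (17 of 199). The windows of 3 genes are printed with 10 bases on each side of the match, 5′ to 3′ on the strand of the gene and with the match in capitals, because they belong to genes of AA and ER stress with large rises (ASNS was chosen after its values were seen). A match is a description, not a site.
ASNS: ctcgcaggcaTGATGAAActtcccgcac
CHAC1: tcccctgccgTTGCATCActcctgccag
HERPUD1: acgcggcgggTTGCATCAgcccgtgccc
The window of ASNS, asparagine synthetase, lies at chr7:97872459-97872486 (minus strand), where the match begins 68 bases before the start. That of CHAC1, which degrades glutathione, lies at chr15:40953252-40953279 (plus strand) and that of HERPUD1, of the endoplasmic reticulum (ER), at chr16:56931956-56931983 (plus strand). In CHAC1 and HERPUD1 the motif is on the other strand. ASNS rose from 20.3, 31.7 and 25.2 to 167, 232 and 191 normalized counts (2.90 on the log2 scale). The AP-1 motif TGANTCA was in 6.08% of promoters of genes that were higher and 3.95% of those lower, against 3.98% of those not called and 7.76% of all promoters. Among genes at least 4-fold higher the share was 15.1%. The palindrome TCACGTGA, bound by regulators of lysosomal genes, was in 2.97% of promoters of genes that were higher, 1.10% of those lower, 1.99% of those not called and 1.04% of all. The NF-kB motif was in 1.02 and 0.413%, against 0.436% of those not called and 0.579% of all, and in 0.503% of genes at least 4-fold higher (1 of 199). TGACGTCA was in 3.37% of promoters of genes that were higher and 2.43% of those lower, both below the 3.96% of those not called (all 1.98%). For TGACNNNGC these shares were 16.4 and 13.8% (not called 15.4%, all 13.6%). For the CArG box, bound by SRF, they were 1.43 and 1.06% (not called 0.925%, all 1.29%).

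Of 44 ribosome biogenesis genes 20 were higher and 0 lower, with a median of 0.51 (with equal totals 16 higher and 1 lower). RRP12, which helps to export ribosomal subunits, went from 527, 673 and 592 to 2017, 2240.2 and 2310.3 normalized counts (log2 1.88 ± 0.12 (SE), adjusted p = 2.65e-09 from limma). The nucleolar helicase gene DDX21 went from 259.9, 183 and 225 to 1060.3, 796 and 809.9, with no overlap in either gene. In the untreated library RRP12 was at 1697 and DDX21 at 826, nearer to EBSS+VBL+Ars than to Ars libraries. Of 78 cytosolic ribosomal protein genes 0 were higher and 0 lower by these thresholds, with a median of 0.02. Without EBSS+VBL+Ars replicate 3, 2 of them were higher. With no minimum fold 3 were higher and 4 lower. Their summed share of normalized counts was 3.03 to 3.74% in Ars and 2.70 to 3.4% in EBSS+VBL+Ars libraries (exact permutation test, two-sided, p = 0.2, where the smallest possible is 0.1).

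Small nucleolar RNAs (snoRNAs) guide the modification of ribosomal RNA, and most are cut from introns of host genes. Of 75 measured, 41 were higher and 0 lower, with a median of 0.82. The groups did not overlap in 27 of the 75, all higher. Over all genes they did not overlap in 60.1%, with 30.3% higher. SNORD17 held 4396, 5044 and 6446 normalized counts in Ars and 9754, 14758 and 11334 in EBSS+VBL+Ars libraries (log2 1.17 ± 0.17 (SE), adjusted p = 2.17e-05 from limma), and SNORA53 1168, 2080.3 and 1851 and 3935, 5259 and 3192 (both chosen after their values were seen). SNORD3A, the U3 RNA that processes the rRNA precursor, went from 15994, 21897 and 21971 to 34143, 65221 and 34379. Their summed share of normalized counts was 0.907 to 1.36% in Ars libraries and 1.74 to 2.84% in EBSS+VBL+Ars libraries, with no overlap (exact permutation test, two-sided, p = 0.1, the smallest possible). Single libraries set much of this count. EBSS+VBL+Ars replicate 2, with the highest snoRNA share, also had the highest share of RN7SL1 and RN7SL2, 20.2%, and Ars replicate 1 had the lowest snoRNA share. Without Ars replicate 1 the count was 24 and without EBSS+VBL+Ars replicate 2 it was 27. It was 60 without Ars replicate 2 and 56 without EBSS+VBL+Ars replicate 1. Leaving out replicate 3 gave 33 (Ars) and 30 (EBSS+VBL+Ars). With replicate number as a block it was 54. DESeq2 on recovered reads called 28, and 0 were lower in each of these fits. The part of library composition in this count was not tested.

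Of 18 host genes of snoRNAs 12 were higher and 0 lower, with a median of 0.85. SNHG10 rose from 134, 185 and 121 to 499.8, 651 and 636 normalized counts and GAS5, whose transcript is degraded during translation, from 409, 492 and 373 to 772, 871 and 735. Other long noncoding RNAs were 8 of 15 higher and 3 lower, median 0.61. PVT1, the neighbour of MYC, rose from 570.5, 673 and 672 to 1018, 1378 and 1211, and MYC itself rose from 277, 279 and 278 to 2148, 2031 and 2070.5 (log2 2.90 ± 0.11 (SE), adjusted p = 8.88e-12 from limma). With equal totals 4 long noncoding RNAs were higher and 5 lower, without EBSS+VBL+Ars replicate 2 there were 5 higher, and without Ars replicate 1 there was 1 lower. Whether counting used strand is not given in the sources used here, so genes with antisense partners are uncertain.

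**Figure D5:**
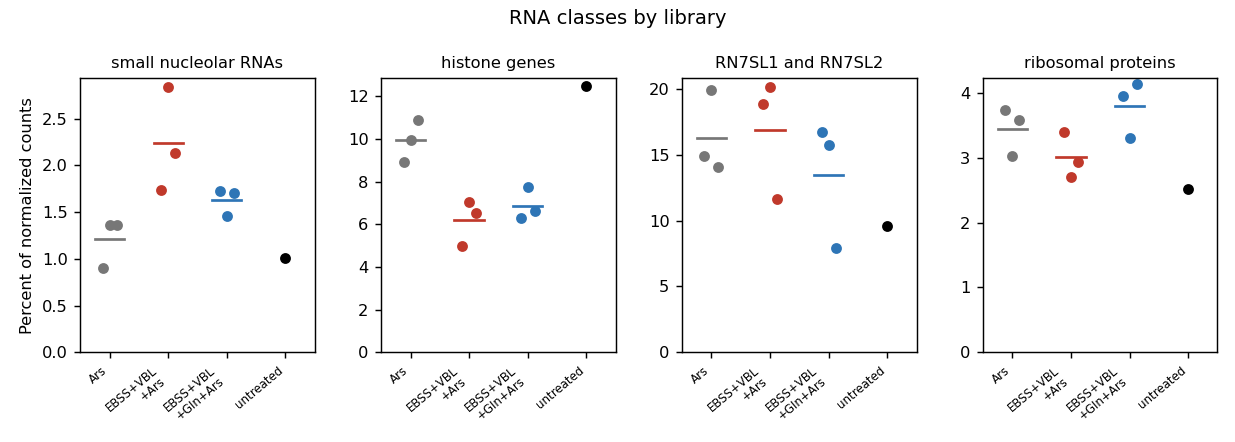
Share of normalized counts, in percent from 0, taken by snoRNAs, histone genes, RN7SL1 with RN7SL2, and ribosomal protein genes. Points are libraries and lines are means of 3. snoRNA shares of EBSS+VBL+Ars libraries (1.74 to 2.84%) lie above those of Ars libraries (0.907 to 1.36%), histone shares lie below, and the other classes overlap.

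HMOX1, heme oxygenase, held 1819, 2482 and 1754 normalized counts in Ars and 1642, 2448 and 2065 in EBSS+VBL+Ars libraries, against 219 in the untreated library. These ranges overlapped (log2 0.02 ± 0.15 (SE), adjusted p = 0.912 from limma). Of 26 targets or partners of NRF2, the regulator of antioxidant genes, 8 were higher and 8 lower, and with equal totals 7 and 12. Those that rose included the small MAF partner genes MAFF, 144, 172 and 163 to 1433, 1484 and 1508, and MAFK and MAFG, which rose 3.51-fold and 2.24-fold. NQO1, a quinone reductase, fell from 603, 492 and 563 to 85.4, 94.3 and 90.6 (log2 -2.60 ± 0.13 (SE), adjusted p = 2.28e-10 from limma). ME1, an NADPH-making enzyme, fell from 130.3, 115 and 132 to 29.2, 29.7 and 27.6.

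Glutathione genes were 4 of 26 higher and 13 lower, median -0.69. CHAC1 rose from 367, 417 and 366 to 2126, 2864 and 2726 normalized counts, 6.71-fold (log2 2.73 ± 0.13 (SE), adjusted p = 9.57e-11 from limma), and OPLAH, which recycles oxoproline, from 272 to 688. The transferase genes GSTA4 and GSTM4 fell from 60.9 to 6.78 and from 298 to 111, and GSR, glutathione reductase of the NRF2 list, from 237 to 114.

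Cytosolic heat shock genes were 4 of 25 higher and 4 lower, median -0.16. The small heat shock genes moved apart, since HSPB1 fell from 5588, 6355 and 5681 to 1621, 2308 and 2122 and CRYAB from 1080.2, 1344 and 1161 to 340.3, 437 and 361 normalized counts, while HSPB8 rose from 221, 327 and 262 to 589, 576 and 551. The untreated library held 2438 of HSPB1 and 319.5 of CRYAB, nearer to EBSS+VBL+Ars than to Ars libraries, and 224 of HSPB8, nearer to Ars. With equal totals 1 of the list was higher and 7 lower. Metallothionein and zinc genes were 0 of 6 higher and 2 lower, median -0.15, and MT1G, which binds metals, fell from 65.5 to 15.3. Without Ars replicate 2 or EBSS+VBL+Ars replicate 1 this list had 1 lower member.

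The ER unfolded protein response was mixed, 7 of 28 higher and 11 lower, median -0.25. ERN1, which encodes the sensor IRE1, rose from 53.3, 74.5 and 52.0 to 289, 423 and 344 normalized counts (log2 2.53 ± 0.18 (SE), adjusted p = 7.2e-09 from limma), and its target XBP1 from 430.5 to 1048. HERPUD1, of ER-associated degradation, rose from 338, 359 and 318 to 1503, 1709 and 1563. Chaperones of the ER lumen fell, PDIA4 from 335, 280.4 and 359 to 93.2, 87.3 and 77.3, CALR from 3644, 3574 and 3514 to 1456, 1406 and 1314 and HSP90B1 from 884 to 315. The lowest Ars library was above the highest EBSS+VBL+Ars library in each of these 3.

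Genes set by insulin and FOXO were 10 of 25 higher and 7 lower, median 0.33. FOXO3, a transcription factor that insulin signalling restrains, rose from 153, 213 and 214 to 429, 670.5 and 634 normalized counts and INSR, the insulin receptor gene, from 58.0 to 112. EIF4EBP1, a translation repressor that mTORC1 inactivates, rose 2.89-fold, from 549 to 1587. TRIB2, a pseudokinase gene, fell from 243, 281 and 286 to 37.1, 27.9 and 40.9 and SESN3, a sestrin gene, from 117, 117 and 129 to 23.6, 15.7 and 15.5 (log2 -2.69 ± 0.21 (SE), adjusted p = 3.32e-08 from limma). In the untreated library SESN3 was at 23.8, nearer to EBSS+VBL+Ars, EIF4EBP1 at 675, nearer to Ars, and TRIB2 at 110, between the groups. Secreted stress factors and prohormones were 6 of 14 higher and 3 lower, median 0.33. IGFBP5, which binds insulin-like growth factors, fell from 666, 659 and 669 to 139, 105 and 122 and the neuropeptide precursor gene VGF rose from 767 to 1772.

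Glucose transport genes were 3 of 14 higher and 5 lower, median -0.23. SLC2A1, the main glucose carrier, fell from 959, 999.6 and 937 to 586, 555 and 678 normalized counts (log2 -0.67 ± 0.11 (SE), adjusted p = 0.000114 from limma), whereas SLC2A3, a high-affinity carrier, rose from 139 to 307. SLC2A12 fell from 69.5, 66.1 and 66.2 to 3.37, 5.24 and 7.73. Hypoxia-responsive genes were 9 of 21 higher and 6 lower, median 0.23. EPAS1, which encodes HIF-2alpha, rose from 61.4, 71.7 and 52.0 to 512, 492 and 575 (log2 3.08 ± 0.15 (SE), adjusted p = 1.3e-10 from limma), DDIT4, an mTORC1 inhibitor, from 669 to 2151, and P4HA1, a collagen prolyl hydroxylase, fell from 163 to 58.5. Clock genes were 6 of 19 higher and 5 lower, median 0.23, with CRY1, a repressor of the clock, at 58.7, 53.1 and 64.6 in Ars and 162, 183 and 154 in EBSS+VBL+Ars libraries, and DBP, an output gene, at 398, 549.6 and 507 and 85.4, 136 and 118.

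Core SG genes were at the background share, 4 of 24 higher and 5 lower, median 0.09. G3BP1, the scaffold of SGs, held 587, 505 and 591 normalized counts in Ars and 699.8, 538 and 584 in EBSS+VBL+Ars libraries, with overlap (log2 0.11 ± 0.13 (SE), adjusted p = 0.486 from limma, 95% interval -0.16 to 0.38). G3BP2 was at 215, 171 and 224 and 295, 213 and 238 (log2 0.28 ± 0.15, adjusted p = 0.128). CAPRIN1, which binds G3BP1 and promotes granules, fell from 1011, 951 and 1056 to 618, 335 and 423 (log2 -1.18 ± 0.17 (SE), adjusted p = 2.02e-05 from limma). The RNA-binding protein genes TIA1 and ELAVL1 fell as well, TIA1 from 95.9, 76.4 and 102 to 30.3, 27.9 and 29.8 and ELAVL1 from 469, 469 and 449 to 277, 206 and 225. USP10, which competes with CAPRIN1 for G3BP1, rose from 335 to 562, and its call was lost with equal totals and with quantile normalization. With equal totals 1 SG gene was higher and 6 lower.

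P-body genes were 4 of 20 higher and 2 lower, median 0.14. AGO2, of microRNA silencing, rose from 595 to 1188 and DCP2, the decapping enzyme, from 91.4 to 149. The call of DCP2 was lost with equal totals and without EBSS+VBL+Ars replicate 1. DCP1A, its partner, was at 80.3, 63.3 and 69.6 against 115, 80.3 and 119 and below the 1.5-fold minimum (log2 0.54 ± 0.19 (SE), adjusted p = 0.0228 from limma), and it was called higher without Ars replicate 1 and without EBSS+VBL+Ars replicate 2. With equal totals 2 P-body genes were higher and 6 lower, and without EBSS+VBL+Ars replicate 1 there were 4 lower.

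Of 31 proteasome subunit genes 8 were lower and 0 higher, with a median of -0.50. PSMB6, a catalytic subunit, fell from 529, 428 and 481 to 198, 211 and 214 and PSMD1, of the regulatory particle, from 494, 427 and 457 to 213, 190.3 and 150.3 normalized counts. The count was 23 with equal totals, 18 with quantile normalization, 19 without EBSS+VBL+Ars replicate 1 and 5 without EBSS+VBL+Ars replicate 3, with 0 higher each time. Mitochondrially encoded mRNAs were 2 of 13 higher and 1 lower, median -0.04, with 1 higher without Ars replicate 2 or EBSS+VBL+Ars replicate 3.

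Cell cycle regulators were mostly lower. Of 31 cyclins, CDKs and their inhibitors or transcription factors, 19 were lower and 2 higher, with a median of -0.83. The list holds brakes as well as drivers. CDKN2C, an inhibitor of CDK4 and CDK6, fell from 151, 130.4 and 132 to 18.0, 21 and 18.8 normalized counts (log2 -2.78 ± 0.19 (SE), adjusted p = 6.17e-09 from limma), and E2F2, which drives entry into S phase, from 369, 366 and 339.6 to 52.8, 68.1 and 49.7. CCND1 and CCNE1, cyclins of G1, fell from 670.4, 661 and 629 to 299, 279 and 305 and from 249.6 to 85.5. CDK6 was higher, at 306 against 532. Fanconi and DNA damage kinase genes were 1 of 22 higher and 13 lower, median -0.73, with UBE2T, which attaches ubiquitin in cross-link repair, at 157, 127 and 160.2 in Ars and 43.8, 36.7 and 40.9 in EBSS+VBL+Ars libraries. Without Ars replicate 1 or EBSS+VBL+Ars replicate 3 no Fanconi or kinase gene was higher.

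E2F motifs were sought in the same promoters, since E2F proteins act on genes of this kind. TTTCCCGC was in 3.17% of promoters of genes that were lower, 2.84% of those not called, 1.89% of those higher and 1.66% of all. Among genes at least 4-fold lower it was in 2.02% (5 of 247). TTTGGCGC was in 1.47, 0.995, 0.767 and 0.659% of the same groups, and in 2.02% of genes at least 4-fold lower. Windows of 3 genes with a match and a large fall, GINS2 and PCNA chosen after their values were seen, are printed in the same way as above.
E2F2: cggcacgacgTTTGGCGCtaaaaaaaaa
GINS2: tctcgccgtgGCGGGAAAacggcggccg
PCNA: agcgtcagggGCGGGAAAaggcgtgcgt
The E2F2 window lies at chr1:23531258-23531285 (minus strand), that of GINS2, of the replicative helicase, at chr16:85688968-85688995 (minus strand) and that of PCNA, the sliding clamp of DNA replication, at chr20:5126664-5126691 (minus strand). In GINS2 and PCNA the motif is on the other strand. PCNA fell from 619.8, 493 and 581 to 213, 119 and 179 normalized counts.

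Of 29 histone genes measured 11 were lower and 0 higher, with a median of -0.48. Histone genes together took 8.92 to 10.9% of normalized counts in Ars libraries and 4.96 to 7.04% in EBSS+VBL+Ars libraries (exact permutation test, two-sided, p = 0.1, the smallest possible). H4C9, a core histone gene, fell from 4051, 4861 and 5609 to 767, 1318 and 984 normalized counts and H2AC12 from 19468, 26203 and 24794 to 6914, 10768 and 8558. Near-identical histone genes may share reads. With equal totals 17 were lower.

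Enzymes that modify histones and DNA were 12 of 46 higher and 12 lower, median 0.14. The histone deacetylase genes HDAC5 and HDAC9 rose, HDAC5 from 429, 533 and 502 to 1796, 1886 and 1989.8 and HDAC9 from 54.0, 39.1 and 51.1 to 269.6, 274 and 218 normalized counts, and the H3K27 demethylase gene KDM6B from 246, 319.5 and 274 to 1021, 1175 and 1164 (log2 2.00 ± 0.12 (SE), adjusted p = 2.24e-09 from limma). EHMT2, which methylates H3K9, fell from 901, 1044 and 949 to 276, 253 and 308, and DNMT1 with its partner UHRF1, which maintain DNA methylation, fell from 623 to 286 and from 352 to 121.

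Receptors for cytokines were mostly higher, 12 of 22 higher and 2 lower, median 0.68. IL4R rose from 66.8, 68.9 and 46.1 to 264, 313 and 330.4 normalized counts (log2 2.31 ± 0.17 (SE), adjusted p = 1.44e-08 from limma), IL6R from 12.8, 10.2 and 8.38 to 64.0, 55.9 and 55.2 and LTBR, the lymphotoxin receptor, from 283 to 692. IL13RA1, which pairs with IL4R, fell from 129.6, 120.2 and 126 to 62.9, 34.9 and 43.1. Of 20 genes of sphingolipid and phospholipid signalling 6 were higher and 5 lower. SPHK1, the kinase that makes sphingosine-1-phosphate, rose from 186, 266 and 204 to 912, 1175 and 1266 (log2 2.35 ± 0.15 (SE), adjusted p = 3.06e-09 from limma), and S1PR3, a receptor for it, fell from 132, 129 and 109.8 to 21.3, 17.5 and 22.1.

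At most 3 reads in each library of one group and a mean of at least 50 normalized counts in the other were found for 11 genes, 8 of them seen in EBSS+VBL+Ars. IL1RL1, the receptor for interleukin 33, had 0.675, 0 and 0 normalized counts in Ars and 78.6, 75.1 and 49.7 in EBSS+VBL+Ars libraries, and 0 in the untreated library. By reads the 95% interval of the ratio ran from 44.2 to 9937-fold. Intervals of this kind cover counting error only, not the choice of these genes by the same reads, so their lower bounds may be too high. With glutamine IL1RL1 was at 2.16, 2.18 and 4.11, nearer to the Ars values. MYCT1 (82.3-fold (95% interval 31.7 to 305)), KLHDC7B (85.1-fold (95% interval 32.7 to 315)), DCDC2C (98.1-fold (95% interval 33.1 to 480.1)), ADCY8, an adenylyl cyclase (38.9-fold (95% interval 16.2 to 122)), and BATF2, a transcription factor (32.1-fold (95% interval 15.2 to 81.3)), were the others beside CCL3 and CCL4. The 3 seen in Ars were EDN2, a vasoconstrictor peptide gene, at 151, 160.2 and 164 against 3.37, 1.75 and 2.21, the stromal marker CD248, at 66.8, 79.2 and 81.3 against 1.12, 0 and 0, and the dopamine receptor gene DRD1, at 61.4, 68.9 and 67.1 against 1.12, 0 and 0. Their ratios were 62.4-fold (95% interval 28.5 to 171), 178-fold (95% interval 31.6 to 7039) and 155-fold (95% interval 27.5 to 6140.1). In the untreated library EDN2 was at 26.6, CD248 at 4.75 and DRD1 at 0.

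Further genes among the 25 largest rises or falls at a mean of at least 100 normalized counts belonged to none of these lists. ALOXE3, an epidermal lipoxygenase, rose from 38.5, 37.3 and 28.5 to 530.1, 670.5 and 674 normalized counts (log2 4.13 ± 0.16 (SE), adjusted p = 1.47e-11 from limma). ITPRIP rose 12.3-fold and VGLL3, a partner of TEAD factors, 9.72-fold. The transporter gene SLC22A15 rose 10.4-fold, and SH2D5 8.85-fold. MCTP1, a membrane protein with C2 domains, rose from 31.7, 23.3 and 36.1 to 330.2, 227 and 241. RPLP0P2, a pseudogene of a ribosomal protein gene that may share its reads, was at 16.2, 15.8 and 7.55 and 215, 209.5 and 199. CXCL14, a chemokine, fell from 239.7, 212 and 264 to 10.1, 6.98 and 6.63 (log2 -4.77 ± 0.22 (SE), adjusted p = 7.88e-11 from limma), and the untreated library had 15.2. SCX, which encodes the tendon factor scleraxis, fell from 186, 245 and 239.8 to 25.8, 24.4 and 24.3, with 11.4 in the untreated library. For both, the untreated value was nearer to EBSS+VBL+Ars than to Ars libraries. The matrix genes HAPLN1, EFEMP1 and CCDC80 fell 6.84-fold, 7.86-fold and 6.68-fold, and SDC2, a syndecan of the cell surface, 6.86-fold. KDELR3, a receptor that returns proteins to the ER, fell from 205, 212 and 214 to 29.2, 33.2 and 26.5, and the transcription factor gene ZNF467 from 196, 282 and 246 to 11.2, 15.7 and 25.4. Among abundant genes, HMGA1, an architectural chromatin protein, rose from 6722, 7552 and 6958 to 18002, 17319 and 19298 and GAPDH, of glycolysis, fell from 34859, 36262 and 36265 to 22715, 21073 and 24551. Untreated values were also nearer to EBSS+VBL+Ars on the log2 scale for ITPRIP (385), VGLL3 (351), HAPLN1 (126), SDC2 (69.4) and ZNF467 (36.1). So were those of HMGA1 (12613) and GAPDH (26869). Apart from these, CXCL14 and SCX, the genes of this paragraph were nearer to Ars.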

How the data were processed

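Libraries of rRNA-depleted total RNA from U2OS cells were sequenced as single reads. STAR (alignment to hg38), HTSeq (gene counts) and DESeq2 (size factors, by which the authors divided the counts) are named without versions, annotation or strand setting. The deposited table holds these values, a signal called normalized counts here, for 60671 genes in 10 libraries. Multiplied by the size factors recovered from it, 100% of values came out as whole reads within 0.01. The table has no row for unassigned reads.

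Groups came from sample titles. Genes with a mean of at least 10 over the 6 libraries were tested by limma 3.58.1 with a trend in R 4.3.3, on log2(normalized count + 1) with no block, after the procedure had been tested on simulated data. P-values were adjusted by Benjamini-Hochberg over 13061 genes, and calls needed an adjusted p under 0.05 and at least 1.5-fold. As alternatives, edgeR 4.0.16 and DESeq2 1.42.0 were run on recovered reads, and pseudocounts, filters, scalings, covariates and single libraries were varied, 21 settings in all. Shares of RNA classes were compared by an exact permutation test, two-sided. Ratios of genes near 0 have exact binomial intervals that cover counting error only, not the choice of those genes by the same reads. Genes were placed by GENCODE release 44 (60401 of 60671 IDs matched), and 1254 of 1255 list symbols were found. Plots were drawn with Python 3.11.15 and matplotlib 3.10.9.

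Genes named are the 25 largest rises and falls at a mean of at least 100, the 10 largest gains and losses in counts, members of 44 lists (1 of them not reported here) led by up to 6 with the smallest p, genes near 0 in one group and genes the study names. Others are said to have been chosen after their values were seen. Members and lists were chosen with earlier results of these data known.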

Additional observations from a re-analysis of the deposited data

How the results depend on the processing

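As reported, 2758 genes were higher and 2792 lower, and leaving out single libraries gave 2544 to 2880 and 2546 to 2960. A mean of at least 50 normalized counts left 8578 genes, with 2034 higher and 1616 lower and a median log2 difference of 0.07. Calls at 2-fold or more were 1432 and 1598. Equal totals gave 2036 and 3674, equal totals of protein-coding genes 2167 and 3453, edgeR 2821 and 2776, and DESeq2 2610 and 2581, all within 1.5 times of the counts as reported. Without replicate 3 of either group, chosen after seeing the data because those libraries have another run of library numbers, there were 2265 and 2245. With replicate number as a block the counts were 2834 and 2882. No label gives the numbers as a pairing, and none was used as reported. Same-numbered libraries correlated at 0.30, 0.22 and -0.04 in their deviations, and libraries of different number at -0.31 to 0.11. The highest of these values, 0.30 and 0.22, belonged to same-numbered libraries, and whether the numbers pair libraries was not tested. For 304 genes named by rule, no called gene turned direction over these settings, 118 values lost a call, 3 gained one (all DCP1A) and 6223 stayed on the same side of the thresholds. The cause was not tested. List counts moved by over 1.5 times in 168 of 1848 cases. Depth limits genes near 10 normalized counts, where a library holds few reads. All EBSS+VBL+Ars libraries had fewer reads than all Ars libraries, and the part of depth in the calls was not tested.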

Other observations

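Abundant genes were more often higher. Of 2065 genes with a mean of 300 to 1000 normalized counts, 28.4% were higher and 14.6% lower, and of 2912 with 10 to 30, 15.4% were higher and 25.9% lower. Long noncoding RNA genes were higher in 30.5% and lower in 14.4% of 979 measured, and protein-coding genes in 19.8% and 22.8% of 11462. Among protein-coding genes split into 5 equal classes by exon length, the shortest class was higher in 14.8% and lower in 30.5%, and the longest in 22.7% and 18.3%. By GC content of the longest transcript of each gene, the lowest of 5 classes was higher in 15.9% and lower in 19.9%. The highest class was higher in 29.3% and lower in 22.1%. Of 13 mitochondrially encoded mRNAs 10 were not called. Among the others, MT-ND3 was at 2160.4, 1942 and 2324 normalized counts in Ars and 3074, 4536 and 3658 in EBSS+VBL+Ars libraries and MT-ND6, from the other strand, at 167, 115 and 144 and 60.7, 78.6 and 91.7. Whether strand was counted is not stated.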
